A study of Mus musculus with 7 samples.

Results

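The genes of oxidative phosphorylation were followed in RNA of total testis from *Rlim* knockout males and their controls. Of the 19719 genes listed for testis, 104 protein-coding genes were taken by their symbols: the subunit and assembly factor genes that begin with Nduf, Uqcr, Cox4 to Cox8 or Atp5, the genes *Sdha* to *Sdhd*, both cytochrome c genes and the protein-coding genes of the mitochondrial genome. Of these, 91 are nuclear genes and 13 are mitochondrially encoded, and all 104 were among the 19400 genes tested. The rule uses symbols and biotype and no measured value, but the set was proposed with earlier results of these data known. Assembly factors and subunits with other names, such as *Cyc1*, are described apart from this set.

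*Rlim* is an X-linked gene for an E3 ubiquitin ligase. The controls were 3 libraries from fl/Y males, labelled WT, which carry the floxed *Rlim* allele in undeleted form. The other group was 4 libraries from cKO/Y Sox2-Cre males, labelled Rlim-KO, in which Cre under the *Sox2* promoter deletes the floxed allele in somatic tissues and in the germline. The controls were littermates, all were C57BL/6 males of 8 weeks of age, and the labels do not state whether each library is a separate animal. Since the deletion comes with the Sox2-Cre transgene, effects of these 2 cannot be told apart. By the labels, batch 2 has 4 libraries (fl/Y replicates 1 and 2, with replicates 1 and 2 of cKO/Y Sox2-Cre) and batch 1 has 3 (replicate 3 of fl/Y and replicates 3 and 4 of cKO/Y Sox2-Cre). In total testis, fewer cells of a type and less RNA per cell cannot be told apart.

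Reads in listed genes numbered 2822168 to 8633399 per library, and levels are in CPM, reads divided by a scaled library size. A count of 0 allows up to 3 reads, or 0.301 to 0.945 CPM depending on the library, which covers counting error only. *Rlim* itself had a mean of 77.2 CPM (SD 19.8, n = 3) in fl/Y testes and of 27.7 CPM (SD 7.58, n = 4) without the gene (log2 fold change -1.38, adjusted p = 0.0087 by limma). The value covers the whole gene, so that reads from outside the deleted part would be counted, and the call was lost in 6 of 20 alternatives of the processing, among them the fit without fl/Y replicate 3. Markers of testis were present in every library, with a summed level of 8749 to 13759 CPM for 8 genes of elongating spermatids and 888 to 2170 CPM for 8 genes of meiotic spermatocytes. Between the genotypes, the ranges of the summed levels overlapped for all 11 lists of cell type markers, including those of Sertoli cells, Leydig cells, macrophages and red blood cells. In the marker lists, *Rhox5* (1 of 8 of Sertoli cells) and *Star* (1 of 6 of Leydig cells) were lower at an unadjusted p under 0.05 by limma. *Pecam1* (1 of 4 of endothelial cells) was higher. At this threshold were 2.58% of all genes, and 0 markers passed after adjustment. Of 6 epididymis markers 1 (*Cst8*) was in the table, at 136 to 205 CPM, and whether epididymis was included was not tested.

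Oxidative phosphorylation makes ATP in the inner mitochondrial membrane. Complex I and complex II feed electrons into the chain, complex III passes them to cytochrome c, complex IV hands them to oxygen, and complex V uses the proton gradient built on the way to make ATP. Most subunits are encoded in the nucleus and a few in the mitochondrial genome, so that each of complexes I, III, IV and V is assembled from both. Germ cells are known to replace some of the common, somatic subunits with isoforms of their own as they pass through meiosis and spermiogenesis: *Cyct* for cytochrome c, and *Cox6b2*, *Cox7b2* and *Cox8c* in complex IV. Their somatic partners are *Cycs*, *Cox6b1*, *Cox7b* and *Cox8a*.

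Because the description turns on these pairs of isoforms, the 150 bases upstream of the start of 3 pairs are given first, from RefSeq on GRCm38.p6, read 5′ to 3′ on the strand of the gene. Capitals mark matches, on either strand, to CCAAT (the CCAAT box, ATTGG when read on the other strand) or to GCATGCGC, a core of the site of NRF1, a transcription factor known to activate nuclear genes of the respiratory chain.
*Cyct* promoter, chr2:76360454-76360603, minus strand: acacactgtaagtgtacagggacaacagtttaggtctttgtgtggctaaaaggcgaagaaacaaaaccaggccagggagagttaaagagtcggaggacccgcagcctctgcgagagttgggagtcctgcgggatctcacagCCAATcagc
*Cycs* promoter, chr6:50566570-50566719, minus strand: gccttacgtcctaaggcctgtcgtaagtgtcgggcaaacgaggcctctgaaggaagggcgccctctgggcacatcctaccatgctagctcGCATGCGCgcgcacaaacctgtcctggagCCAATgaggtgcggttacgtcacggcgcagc
*Cox6b2* promoter, chr7:4753095-4753244, minus strand: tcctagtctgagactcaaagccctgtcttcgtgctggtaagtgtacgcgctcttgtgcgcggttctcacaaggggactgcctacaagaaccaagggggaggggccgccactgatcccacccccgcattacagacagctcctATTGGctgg
*Cox6b1* promoter, chr7:30626115-30626264, minus strand: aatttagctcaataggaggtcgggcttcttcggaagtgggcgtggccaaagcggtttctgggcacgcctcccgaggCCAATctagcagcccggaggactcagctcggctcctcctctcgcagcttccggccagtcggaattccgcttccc
*Cox7b2* promoter, chr5:71548206-71548355, minus strand: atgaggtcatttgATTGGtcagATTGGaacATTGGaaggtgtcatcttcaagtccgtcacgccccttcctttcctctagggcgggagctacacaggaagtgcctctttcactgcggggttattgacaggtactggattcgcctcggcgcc
*Cox7b* promoter, chrX:106015550-106015699, plus strand: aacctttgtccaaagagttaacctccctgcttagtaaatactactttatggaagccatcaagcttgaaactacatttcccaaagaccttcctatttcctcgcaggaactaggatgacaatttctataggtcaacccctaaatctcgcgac
In these 6 stretches the NRF1 core was matched in that of *Cycs*. The CCAAT box was matched in those of *Cyct*, *Cycs*, *Cox6b2* and *Cox6b1*, 3 times in that of *Cox7b2*, and not in that of *Cox7b*. Over windows of 300 bases around the start, 74 of the 91 nuclear genes had a RefSeq promoter to search. The NRF1 core was found in 13 of these (17.6%), against 3.05% of all 27025 genes with a promoter to search. Those with it included *Cycs*, *Sdhb*, *Uqcrc1*, *Uqcr11*, *Cox6a1*, *Ndufa8* and *Atp5k*, which belong to 6 of the groups described here. TGACGTCA, the full cyclic AMP response element that CREM binds in spermatids, was found in 5 of 74 (6.76%) and in 2.03% of all, and *Cycs* has it outside the stretch printed above. ACTTCCGG, a core bound by ETS factors, was found in 5 (6.76%) and in 4.31% of all, and CCAAT in 34 (45.9%) and in 41.1% of all. Such a match is a description of the letters and not a site of binding.

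All 4 testis isoforms were at higher levels than their somatic partners in each of the 7 libraries, whether by CPM or by CPM per kb of exon. To compare levels between genes, CPM was divided by the length of all annotated exons of the gene in kb. Per kb, *Cyct* was at 100.8, 98.0 and 70.9 in fl/Y replicates 1 to 3 and at 99.0, 85.8, 65.4 and 66.2 in cKO/Y Sox2-Cre replicates 1 to 4. *Cycs* was at 4.81, 2.91 and 3.97 in fl/Y and at 2.92, 3.45, 2.96 and 4.30 in cKO/Y Sox2-Cre testes. Thus the testis form of cytochrome c was 15.4 to 33.9 times the somatic form per kb. By CPM alone the ratio was 2.96 to 6.53, because the annotated exons of *Cycs* add up to 3404 bases against 655 for *Cyct*. The share of the annotated length that testis transcripts of *Cycs* use was not measured, and 28.6% of the 35-base words of *Cycs*, against 0% of those of *Cyct*, also occur in transcripts of other genes. Per kb of exon that is not shared in this way, the mean of *Cyct* was 16.5 times that of *Cycs*, and the other 3 testis isoforms were 3.39 (*Cox6b2*), 60.4 (*Cox7b2*) and 7.21 times (*Cox8c*) their partners.

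COX6B joins the partners of the complex IV dimer on the side of the intermembrane space. The level of its testis form *Cox6b2* per kb was 25.0, 24.2 and 62.0 in fl/Y and 38.1, 21.4, 52.3 and 57.9 in cKO/Y Sox2-Cre testes. *Cox6b1*, the somatic form, was at 11.0, 8.56 and 9.37 and at 15.3, 16.0, 9.34 and 11.8 in the same order. This was the closest of the 4 pairs, with a ratio of 1.33 to 6.62 and its lowest value in cKO/Y Sox2-Cre replicate 2. *Cox7b2* was the highest of all nuclear genes in the set per kb by the mean over the 7 libraries, though not in each library. It was at 252, 172 and 99.3 in fl/Y and at 158, 288, 95.3 and 109 in cKO/Y Sox2-Cre testes. *Cox7b*, its X-linked partner, was at 2.14, 1.16 and 1.75 and at 3.32, 1.64, 6.23 and 2.15, close to the bottom of the set (rank 98 of 104). The ratio of this pair was 15.3 to 176, the widest of the 4, and its low end came from cKO/Y Sox2-Cre replicate 3, where *Cox7b* was highest. Only 102 reads of *Cox7b* were counted over all libraries. *Cox8c*, at 52.2 to 124 per kb, was 3.83 to 16.9 times *Cox8a*, at 5.71 to 13.7.

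**Figure D1:**
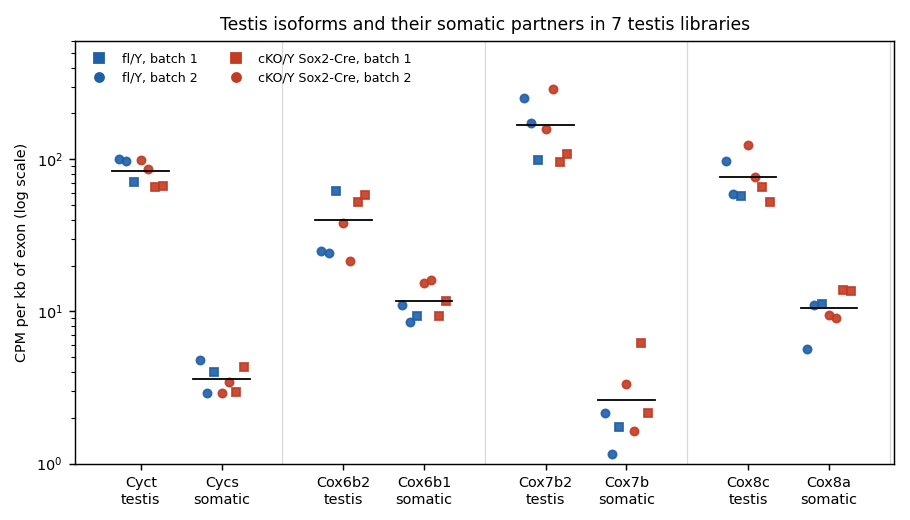
CPM per kb of exon (log axis) of the 4 testis isoforms and their somatic partners, 1 point per library, blue for fl/Y and red for cKO/Y Sox2-Cre, squares for batch 1 and circles for batch 2, with a line at the mean of the 7 libraries. Within each pair the testis isoform is above its partner in every library, and the genotypes overlap for each gene.

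Ordered by the mean over 7 libraries, the levels per kb were 168 ± 76.6 for *Cox7b2*, 83.7 ± 16.0 for *Cyct*, 76.0 ± 25.9 for *Cox8c* and 40.1 ± 17.2 for *Cox6b2* (SD, n = 7). They were followed by *Cox6b1* at 11.6 ± 2.98, *Cox8a* at 10.5 ± 2.80, *Cycs* at 3.62 ± 0.76 and *Cox7b* at 2.63 ± 1.72. *Cyct* and *Cox8c* differed by less than their spread, as did *Cox6b1* and *Cox8a*, and *Cycs* and *Cox7b*. None of the 35-base words of the 4 testis isoforms occurs in another gene's transcripts. Beside these pairs, *Ndufa4l2*, a relative of *Ndufa4* known for its induction in low oxygen, was at 9.76 per kb, and *Ndufa4*, now known as a complex IV subunit, at 8.47. The muscle and lung isoforms *Cox4i2*, *Cox6a2*, *Cox7a1* and *Cox8b* were not among the genes listed for testis, so that no level can be given for them. Outside the chosen set, *Slc25a31* and *Pdha2*, the germ cell forms of the ATP/ADP carrier and of the pyruvate dehydrogenase subunit, were at 31.5 to 57.8 and at 133 to 189 CPM. *Pdha1*, the X-linked somatic partner of *Pdha2*, was at 4.72 to 7.57 CPM, and the carriers *Slc25a4* and *Slc25a5* at 16.4 to 26.8 and 14.1 to 28.03 CPM.

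The 3 X-linked members, *Cox7b*, *Ndufa1* and *Ndufb11*, were at 3.19, 4.89 and 6.15 CPM on average, or at 2.63, 11.7 and 6.77 CPM per kb. The median over the 88 nuclear genes on autosomes was 31.5 CPM, or 17.9 per kb. *Ndufa1* encodes a small membrane subunit of complex I needed for its assembly. It was at 5.39, 3.23 and 5.57 CPM in fl/Y and at 3.72, 3.59, 6.30 and 6.42 CPM in the cKO/Y Sox2-Cre testes, and its ranges overlapped between the genotypes. *Ndufb11*, another membrane subunit of complex I, was at 5.58, 7.88 and 6.63 CPM and at 7.75, 3.39, 5.67 and 6.12 CPM, again overlapping. Of its 35-base words, 25.6% occur in other transcripts.

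By complex, the median level per kb was highest for the 8 nuclear subunits of complex III (37.2, from 18.7 to 51.4). It was 22.9 for the 16 genes of complex IV, 19.7 for the 4 of complex II, 16.4 for the 36 nuclear subunits of complex I, 12.2 for the 17 genes of complex V and 7.46 for the 8 complex I assembly factors. These medians lay close together next to the range inside each group, which was 2.63 to 168 for complex IV and 2.05 to 88.6 for complex V. In complex I the highest was *Ndufv2*, a core iron-sulphur subunit of the NADH-binding module, at 92.3 per kb. In complex III it was *Uqcrfs1*, the Rieske iron-sulphur protein, at 51.4. In complex V it was *Atp5b*, the catalytic beta subunit, at 88.6 per kb and 342 to 409 CPM over the libraries. Next to *Cox7b2*, the highest nuclear gene was *Cox7a2* at 105 per kb. The assembly factor *Ndufaf3* reached 67.6 per kb, whereas *Ndufaf6* was the lowest of the set at 0.764 per kb, with 34 reads in all. *Atp5s*, also called coupling factor B, was at 11.5 per kb, and *Atp5sl*, known for a part in complex I assembly, at 7.15.

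**Figure D2:**
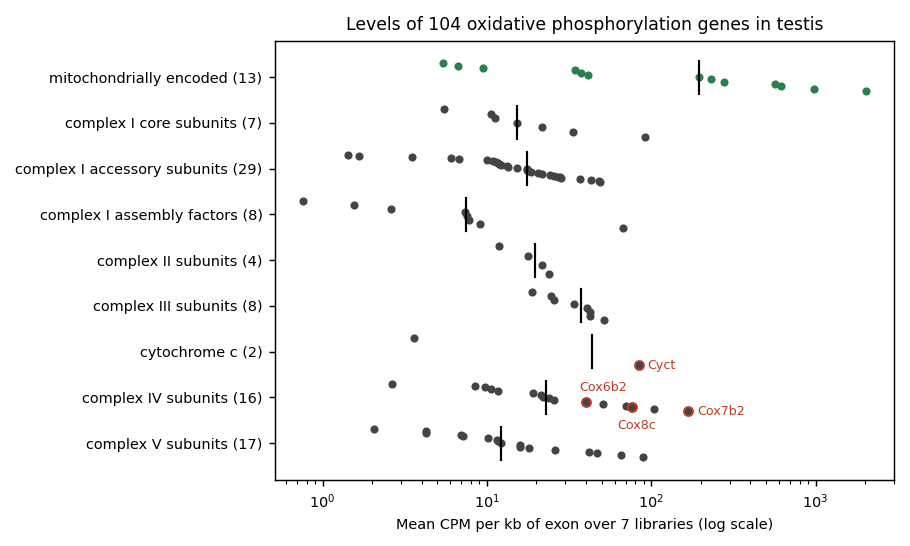
Mean CPM per kb of exon over 7 libraries (log axis) of each of the 104 genes, by complex, with the number of genes in parentheses and a bar at the median of the group. Mitochondrially encoded genes are green, and the 4 testis isoforms are ringed in red, at 40.1 to 168 per kb.

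The 4 subunits of complex II, the one complex with no mitochondrially encoded subunit, were close to each other. *Sdha*, the flavoprotein that oxidises succinate, was at 82.3, 43.8 and 79.6 CPM in fl/Y and at 86.5, 57.6, 85.3 and 77.0 CPM in the cKO/Y Sox2-Cre testes. *Sdhb*, the iron-sulphur subunit, was at 43.8 to 58.9 and at 49.9 to 63.9 CPM. The membrane anchors *Sdhc* and *Sdhd* were at 39.6 to 42.6 and 20.2 to 28.3 CPM in fl/Y and at 31.8 to 44.7 and 23.3 to 33.5 CPM in the cKO/Y Sox2-Cre testes. The genotypes overlapped for each of the 4, with log2 fold changes of -0.11 for *Sdhc* to 0.23 for *Sdhd*. Per kb the 4 lay between 11.9 and 23.7.

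The 13 mitochondrially encoded genes took 0.507 to 0.808% of all reads, and the 91 nuclear genes 0.314 to 0.468%. *mt-Co1*, the catalytic subunit of complex IV, held 42.5 to 57.5% of the mitochondrially encoded reads. It was at 2952, 4022 and 3198 CPM in fl/Y and at 3411, 3221, 2696 and 2525 CPM in the cKO/Y Sox2-Cre testes. Per kb the order was *mt-Co1* at 2037, complex I subunits *mt-Nd1* at 980 and *mt-Nd2* at 621, and *mt-Cytb* of complex III at 564. Then came *mt-Nd5*, *mt-Nd6* and *mt-Nd4* at 277, 231 and 196. Per kb of exon not shared with other transcripts, *mt-Nd4* was at 525, *mt-Nd5* at 324 and *mt-Nd6* at 239. The order of these 3 thus depends on the measure. By the mean per kb of exon over the 7 libraries, these 7 genes were above every nuclear gene of the set. This did not hold in each library. In cKO/Y Sox2-Cre replicate 3, *mt-Nd6* was at 81.9 and *mt-Nd4* at 120 per kb, and the nuclear gene *Cox7a2* at 127. The other 6 lie side by side on the mitochondrial genome and were far lower, at 5.38 to 41.1 per kb with a median of 21.8. They are *mt-Co2* and *mt-Co3*, which complete the catalytic core of complex IV, *mt-Atp8* and *mt-Atp6* of complex V, and *mt-Nd3* and *mt-Nd4l* of complex I.

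Most of this low stretch is repeated in other annotated transcripts. In GENCODE M21 transcripts, all 35-base words of *mt-Co2* also occur in other genes, as do 99.9% of those of *mt-Co3*, 99.5% of *mt-Atp6*, 98.9% of *mt-Nd4l* and 98.1% of *mt-Nd3*. One such word of *mt-Co2* (MT:7113-7147, plus strand) is shown as an example of the sharing, and it is present letter for letter in Gm28661, an unprocessed pseudogene on chromosome 1.
*mt-Co2*, shared stretch: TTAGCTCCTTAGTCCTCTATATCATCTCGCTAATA
These chromosome 1 copies are in the table at levels like those of the genes themselves. Gm28437 was at 18.0 to 55.0 CPM and *mt-Co3* at 19.5 to 34.7 CPM, Gm10925 was at 13.9 to 54.4 and *mt-Atp6* at 18.6 to 30.8 CPM, and Gm28661 was at 14.4 to 32.1 and *mt-Co2* at 26.0 to 32.4 CPM. A read that fits a gene and its copy equally well cannot be assigned to 1 of them by its letters. *mt-Atp8* was at 9.44 per kb with 5.29% of its words shared. Only annotated transcripts were searched, so that a copy of *mt-Atp8* elsewhere in the nuclear genome would not be counted. *mt-Co1* and *mt-Nd4*, at 2037 and 196 per kb, had 60.5% and 62.6% shared, and their copies were far below them. Gm13340 on chromosome 2 was at 24.6 to 55.8 CPM and *mt-Co1* at 2525 to 4022 CPM. Gm28439 was at 1.89 to 13.4 CPM and *mt-Nd4* at 128 to 399 CPM. *mt-Atp8* overlaps *mt-Atp6*. The part of shared reads in the low levels was not tested, and the levels of these 6 genes are uncertain. *mt-Nd6* lies on the opposite strand to the other 12, and its end overlaps that of *mt-Nd5*. Whether strand was used in counting is not given in the sources used here, so that reads of *mt-Nd6* and antisense reads of the long transcripts opposite to it cannot be told apart.

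**Figure D3:**
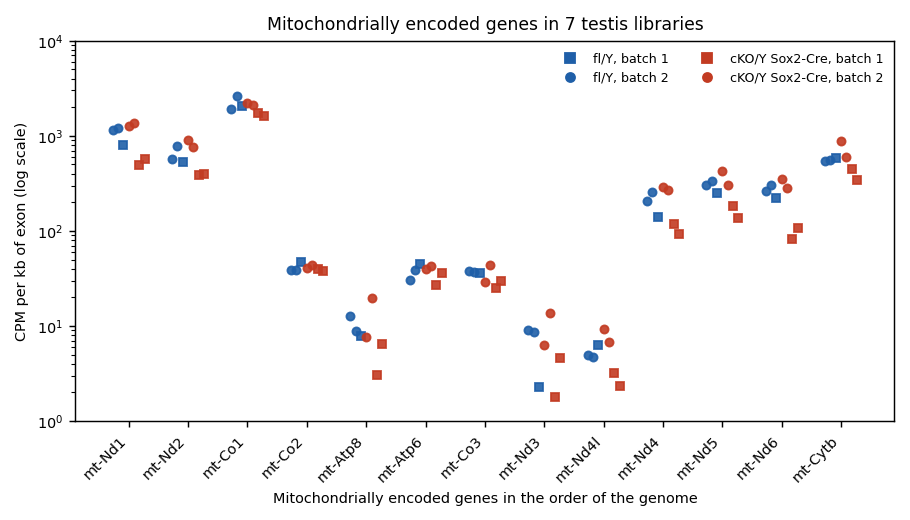
CPM per kb of exon (log axis) of the 13 mitochondrially encoded genes in the order in which they lie on the genome, 1 point per library, blue for fl/Y and red for cKO/Y Sox2-Cre, squares for batch 1 and circles for batch 2. The 6 genes from *mt-Co2* to *mt-Nd4l* lie at means of 5.38 to 41.1 and the others at 196 to 2037.

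Between the genotypes, no member was called. On log2(CPM + 0.5) with the batch as a covariate, 0 of 104 had an adjusted p under 0.05 by limma, where 1 gene of all (0.00515%, *Rlim*) did. At an unadjusted p under 0.05, 0 of 104 members were found by limma, against 501 of all genes (2.58%). On the recovered reads, edgeR gave 1 member lower (*Ndufa4*) at an unadjusted p under 0.05, which is 0.962% of members against 2.21% of all genes. DESeq2 gave 0 members, against 0.938% of all genes, and both gave 0 members after adjustment. Of the members 54 were above 0 and 50 below, with a median log2 fold change of 0.010, and that of all genes tested was -0.0055. The median was 0.020 for the 91 nuclear genes, and -0.041 when mitochondrial genes were left out of the library sizes, and it was -0.054 for the 13 mitochondrially encoded genes. For 102 members the 95% interval of the difference lay within a 2-fold change in either direction, the exceptions being *Cox7b* (-0.16 to 1.46) and *Ndufaf6* (-1.06 to 0.71), of which few reads were counted. The intervals, which are not adjusted for the number of genes, reached 0.41 on the log2 scale to either side of the estimate in the median member. In such a member a smaller estimate would not pass even at an unadjusted p under 0.05. To pass after adjustment over all genes tested, a larger difference would be needed. The estimates of *Ndufa4* (-0.48), *Cox5a* (0.42), *Cox6b1* (0.45) and *Cox7b* (0.65) were beyond 0.41 and were not called by limma.

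Within the complexes, the estimates were on both sides of 0. Of the 36 nuclear subunits of complex I, 18 were above and 18 below (median 0.0019), and of the 17 genes of complex V, 8 were above and 9 below (median -0.0090). In complex III 6 of 8, in complex IV 12 of 16 and in complex II 3 of 4 were above 0, with medians of 0.035, 0.095 and 0.14. Both cytochrome c genes were below 0, with log2 fold changes of -0.20 (standard error 0.23) for *Cycs* and -0.11 (0.14) for *Cyct*. The testis isoforms *Cox6b2*, *Cox7b2* and *Cox8c* were at 0.058, 0.035 and 0.23, and the somatic *Cox6b1*, *Cox7b* and *Cox8a* at 0.45, 0.65 and 0.23. None of these was past the threshold, with or without adjustment.

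**Figure D4:**
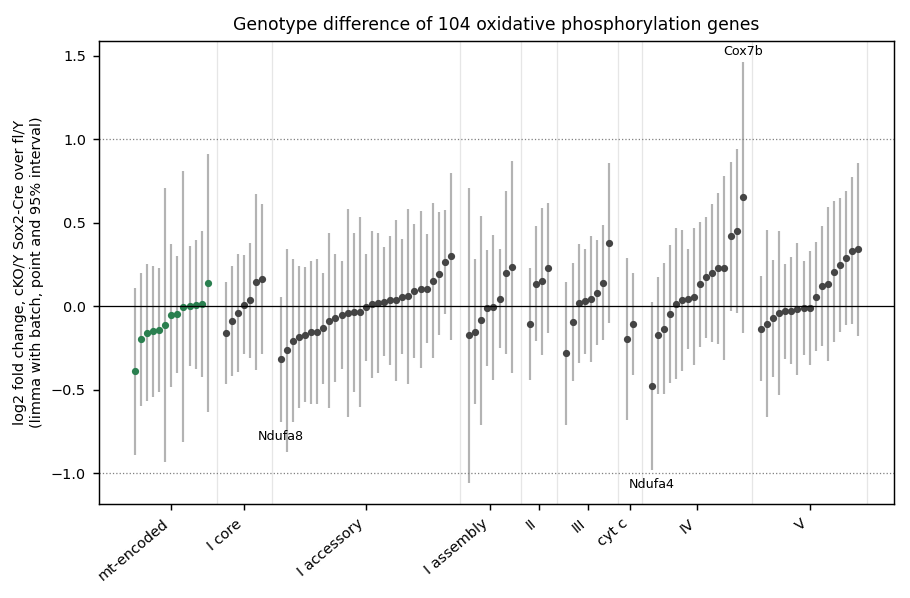
Log2 fold change of cKO/Y Sox2-Cre over fl/Y testes for each of the 104 genes, with the 95% interval from limma, sorted within each complex; dotted lines mark a 2-fold change. Mitochondrially encoded genes are green, and the points run from -0.48 (*Ndufa4*) to 0.65 (*Cox7b*).

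The member with the smallest unadjusted p was *Ndufa4*, of complex IV. It was at 10.8, 18.4 and 13.5 CPM in fl/Y and at 13.03, 8.57, 9.13 and 8.43 CPM in the cKO/Y Sox2-Cre testes, so that cKO/Y Sox2-Cre replicate 1 lay among the fl/Y libraries and the other 3 below them. Its log2 fold change was -0.48 (standard error 0.24, unadjusted p = 0.061, adjusted p = 1.0 by limma). *Ndufa8*, a complex I subunit of the intermembrane space, was at 20.5, 21.2 and 18.8 CPM in fl/Y and at 17.7, 15.9, 13.9 and 15.7 CPM in the cKO/Y Sox2-Cre testes. It was the 1 member of 104 whose genotypes did not overlap, as was the case for 2.92% of all genes, with a log2 fold change of -0.32 (unadjusted p = 0.089). Its log2 fold change was -0.30 within batch 2 and -0.34 within batch 1. The next lower estimates by p were those of *mt-Nd6* (-0.39), *Uqcrb* (-0.28), *Ndufv2* (-0.16) and *mt-Co3* (-0.20), at unadjusted p-values of 0.12 to 0.31 by limma.

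On the higher side *Cox5a*, a matrix-facing subunit of complex IV, had the smallest p. It was at 32.9, 20.4 and 44.6 CPM in fl/Y and at 30.7, 49.8, 52.9 and 47.5 CPM in the cKO/Y Sox2-Cre testes, with a log2 fold change of 0.42 (standard error 0.21, unadjusted p = 0.063). Here cKO/Y Sox2-Cre replicate 1 was within the fl/Y range, and the other 3 were above it. *Cox6b1* was at 7.81, 6.06 and 6.63 CPM and at 10.9, 11.4, 6.61 and 8.33 CPM, with a log2 fold change of 0.45 (unadjusted p = 0.069). The 2 libraries of cKO/Y Sox2-Cre in batch 2 were the highest, and the estimate was 0.65 within batch 2 and 0.15 within batch 1. *Ndufb8*, a membrane-arm subunit of complex I, was at 56.5, 56.7 and 40.8 CPM and at 59.9, 68.0, 56.7 and 51.8 CPM, with 0.26 (unadjusted p = 0.092). *Cox7b* (0.65), *Uqcr11* of complex III (0.38) and *Atp5d*, the delta subunit of complex V (0.33), followed at unadjusted p-values of 0.11 to 0.13. For each of these 6 the genotypes overlapped.

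Genes that assemble the chain or serve it from outside the chosen set were counted in the same fit. Of 40 further assembly factors and subunits with other names, 24 were above 0, and 0 were at an unadjusted p under 0.05 by limma (median 0.059). Of 27 genes for mitochondrial transcription and RNA, 10 were above 0 and 0 were at an unadjusted p under 0.05 (median -0.071). The germ cell genes *Slc25a31* and *Pdha2* had log2 fold changes of 0.048 and 0.10, and their somatic partners *Slc25a5*, *Slc25a4* and *Pdha1* had 0.29, -0.034 and -0.21.

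More members differed between the labelled batches than between the genotypes. By the batch term of the same limma fit, 11 of 104 members (10.6%) had an adjusted p under 0.05, against 7.06% of all genes, and 6 of the 11 were among the 13 mitochondrially encoded genes. The 5 nuclear genes make up 5.49% of the 91, below the share of all genes. Batch 2 was higher by 1.13 on the log2 scale for *mt-Nd4*, by 1.01 for *mt-Nd1*, by 0.79 for *mt-Nd2*, by 0.85 for *mt-Nd5*, by 1.19 for *mt-Nd6* and by 1.36 for *mt-Nd3*. All 6 are complex I subunits. They were selected by the batch term on the same values, and the batches did not overlap for 32 of all 104 members. For each of the 6, the 4 libraries of batch 2 lay above the 3 of batch 1. Of these, *mt-Nd3* had 84 reads over all libraries, and 98.1% of its words were shared. In batch 1 it was at 0.630 to 1.61 CPM, where 3 reads amount to 0.301 to 0.945 CPM, so that its estimate is uncertain. For *mt-Nd1* batch 1 was at 468 to 770 CPM and batch 2 at 1090 to 1299 CPM, and for *mt-Nd4* the ranges were 128 to 192 and 288 to 399 CPM. *mt-Nd4l*, the other mitochondrially encoded complex I gene, had an estimate of 0.56 that did not pass (adjusted p = 0.39 by limma). Neither did *mt-Atp8* of complex V at 0.80 and *mt-Cytb* of complex III at 0.47 (adjusted p = 0.21 and 0.17 by limma). *mt-Co1* differed less, by 0.25 (adjusted p = 0.43), and *mt-Co2* by -0.042 (adjusted p = 0.90). Of the 13 genes, 12 had an estimate above 0.

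Among nuclear genes, *Cox7b2* and *Cox6b2* differed between the batches in opposite directions. *Cox7b2* was at 51.6 to 59.0 CPM in batch 1 and at 85.6 to 156 CPM in batch 2 (1.06 on the log2 scale, adjusted p = 0.0085 by limma). *Cox6b2* was at 57.9 to 68.7 CPM in batch 1 and at 23.7 to 42.2 CPM in batch 2 (-1.09, adjusted p = 0.0067). For both genes the batches did not overlap, and the genotypes did. *Uqcrq*, a small subunit of complex III, and *Ndufb5*, a membrane subunit of complex I, were higher in batch 2, by 0.93 and 0.90, and *Atp5d* was lower, by 0.86. *Cox8c* and *Cyct* had estimates of 0.59 and 0.48 that did not pass (adjusted p = 0.10 and 0.055).

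**Figure D5:**
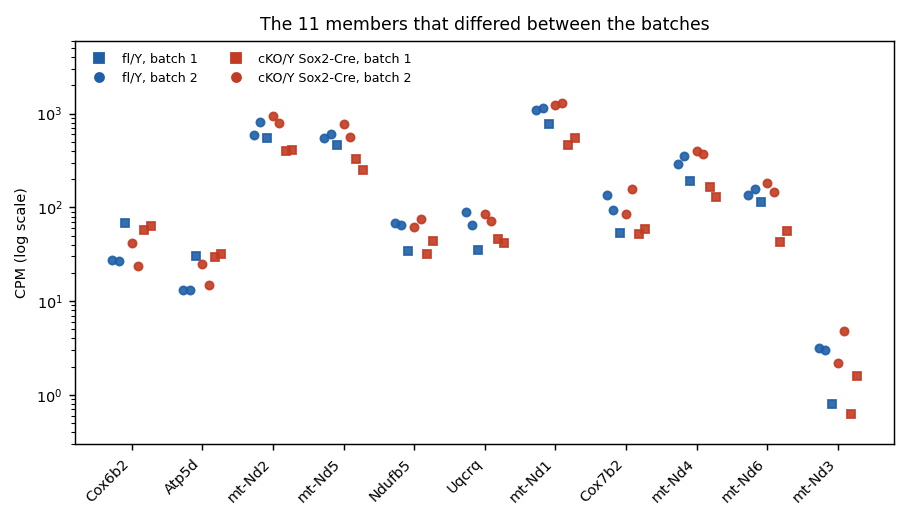
CPM (log axis) in each library of the 11 members with an adjusted p under 0.05 between the batches by limma, sorted by the estimate, blue for fl/Y and red for cKO/Y Sox2-Cre, squares for batch 1 and circles for batch 2. Batch 2 is lower for *Cox6b2* and *Atp5d* and higher for the other 9. The 11 were selected by this test and show no overlap of the batches, which holds for 32 of all 104 members.

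Other values moved with the batches as well. The mitochondrial ribosomal RNAs took 5.35 to 8.69% of reads in batch 1 and 12.03 to 20.9% in batch 2. The summed level of 8 markers of meiotic spermatocytes was 888 to 1223 CPM in batch 1 and 1635 to 2170 CPM in batch 2. Of the 8, 4 (*Sycp1*, *Sycp2*, *Sycp3* and *Hormad1*) were higher in batch 2 at an adjusted p under 0.05, where 7.06% of all genes differed in either direction. *Ccna1* and *Spo11* had estimates below 0 (-0.11 and -0.080), and the others of the list above 0. For 8 markers of elongating spermatids the sums were 11976 to 13759 and 8749 to 9851 CPM, and 3 of the 8 (*Prm2*, *Tnp2* and *Odf1*) were lower in batch 2 at the same threshold. *Tnp1* and *Akap4* had estimates above 0 (0.077 and 0.12), and the others of the list below 0. For 7 markers of round spermatids the sums did not overlap either, at 964 to 1021 and 757 to 861 CPM, and 0 of the 7 passed singly. Of these, *Catsper3* had an estimate above 0 (0.53), and the others below 0. In the lists of Leydig and peritubular myoid cells 1 gene each passed, and the sums of both lists overlapped between the batches. For Leydig cells they were 494 to 711 CPM in batch 1 and 422 to 536 CPM in batch 2. The Leydig markers other than *Insl3* had estimates from -0.34 (*Cyp11a1*) to 0.21 (*Hsd3b1*). *Insl3*, the Leydig cell hormone, was at 51.5 to 119 CPM in batch 1 and at 1.12 to 6.26 CPM in batch 2 (-4.01 on the log2 scale, adjusted p = 6.3e-05 by limma). *Tagln*, an actin-binding protein of smooth muscle and myoid cells, was at 0.315 to 0.530 and at 2.19 to 4.65 CPM (2.02 on the log2 scale, adjusted p = 0.0059). None of the markers of these 5 lists was at 0 in all libraries. The part of these shifts in the batch differences of the members was not tested.

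The estimated genotype differences of most mitochondrially encoded genes had opposite signs in the 2 batches. Between libraries, the median of these 13 genes had an SD of 0.45 on the log2 scale, and that of the nuclear genes 0.046. Within batch 2 (2 against 2 libraries) 11 of 13 were above 0, with a median of 0.18. Within batch 1 (1 fl/Y against 2 cKO/Y Sox2-Cre libraries) 12 of 13 were below 0, with a median of -0.52. The nuclear genes went the other way by a smaller amount, with medians of -0.051 and 0.11. By a genotype by batch interaction, chosen after the data were seen, 6 of 104 members (5.77%) had an unadjusted p under 0.05, against 2.08% of all genes, and 0 passed after adjustment by limma. The 6 were *mt-Nd1*, *mt-Nd2*, *mt-Nd5*, *mt-Nd6*, *mt-Cytb* and the complex V gene *Atp5k*. The mitochondrial genes are copied from the same genome as long joint transcripts, so that they are not independent of each other.

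*mt-Nd6* showed the widest such gap. It was at 136 and 158 CPM in fl/Y and, with *Rlim* deleted, at 184 and 148 CPM in batch 2, and at 115 CPM in fl/Y against 42.5 and 55.5 CPM in the cKO/Y Sox2-Cre testes in batch 1. The log2 fold change was 0.17 within batch 2 and -1.24 within batch 1 (unadjusted p of the interaction 0.0011, adjusted p = 1.0 by limma). *mt-Cytb*, the mitochondrially encoded subunit of complex III, was at 616 and 632 CPM in fl/Y and, with *Rlim* deleted, at 1002 and 679 CPM in batch 2, and at 673 CPM against 518 and 397 CPM in batch 1. In batch 1 both cKO/Y Sox2-Cre libraries were thus below the single fl/Y library for these genes. With 1 fl/Y library in batch 1, a difference of that library cannot be told apart from one of the genotype in that batch.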

How the data were processed

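For total testis RNA (3 libraries of fl/Y and 4 of cKO/Y Sox2-Cre), 1 table of 19719 genes, deposited by the authors, was used. Per the labels, edgeR, featureCounts and HISAT2 2.1.0 made the values on GRCm38, whereas the methods of the study name TopHat and HTSeq, and reads were not aligned again. The deposited signal values are CPM per the name of the table. They were whole multiples of 1 read to within 0.001 in every column (100% of values), and their sums fit TMM-scaled library sizes. The whole reads recovered in this way were used for edgeR 4.0.16 and DESeq2 1.42.0 as alternatives.

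The 19400 genes that exceeded 1 CPM in 3 or more of the 7 libraries entered limma 3.58.1 (R 4.3.3) as log2(CPM + 0.5), with a variance trend and the batch as a covariate, two-sided, with Benjamini-Hochberg adjustment and a threshold of 0.05. A fold change on this scale understates that of low genes. The labels do not state that replicates are separate animals, and p-values measure the spread between these libraries. The fit was tested on simulated data. Gene lengths (union of exons) and shared 35-base words came from GENCODE M21, with positions as in the table for 90 of 104 members, and promoters from RefSeq.

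The members, lists and tests were chosen with earlier results of these data known. Named are *Rlim*, the isoform, X-linked, complex II and mitochondrially encoded genes, the highest gene per kb of each other complex, the 6 members higher and 6 lower with the smallest p, and germ cell forms of mitochondrial genes. Other names were chosen after their values were seen, as were the batch comparison, the interaction and levels per unshared kb.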

Additional observations from a re-analysis of the deposited data

Results flagged for a closer look

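Among the 38 named members, 1 library of the 4 cKO/Y Sox2-Cre testes stood apart from the other 3 by Dixon's test. For *Ndufa4* it was replicate 1, at 13.03 CPM, where the others were at 8.43 to 9.13 CPM and the fl/Y libraries at 10.8 to 18.4 CPM. The gap to the nearest of them was 0.847 of the range, above the 95% critical value for 4 samples. Chance gives such a result in about 1 of 20 groups.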

How the results depend on the processing

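The count of 0 members at an adjusted p under 0.05 was kept in all alternatives but batch 1 alone. That fit has 1 fl/Y library, assumed to vary like the others, and gave *mt-Nd6* a log2 fold change of -1.24. At an unadjusted p under 0.05, batch 1 alone gave 8 lower members and 6 higher ones (13.5% of members, against 5.21% of all genes), with medians of 0.11 for nuclear and -0.52 for mitochondrially encoded members. In batch 2 alone the nuclear median was -0.051. With mitochondrial genes left out of the library sizes, 1 member was lower before adjustment (*Ndufa4*, 0.962% of members against 2.2% of all genes). The nuclear median was then -0.041. By edgeR on the recovered reads 1 was lower before adjustment (0.962% of members against 2.21% of all genes). Leaving out each library in turn gave 0 members after adjustment, 0 to 3 lower (3 without cKO/Y Sox2-Cre replicate 1, 2 without replicate 2 or fl/Y replicate 1) and 0 to 5 higher before it (5 without cKO/Y Sox2-Cre replicate 2, 4 without replicate 1, 2 without fl/Y replicate 1), which is 6.73% of members against 3.71% of all genes without cKO/Y Sox2-Cre replicate 1, 6.73% against 6.28% without replicate 2 and 3.85% against 2.28% without fl/Y replicate 1, with nuclear medians of -0.051 to 0.042 and mitochondrial medians of -0.18 to 0.18, positive without fl/Y replicate 3. The same replicate numbers did not pair the samples (correlations of deviations 0.10, 0.066 and 0.39, with replicate 1 closest to number 2). A replicate block gave 1 member higher before adjustment (*Cox7b*, 0.962% of members against 1.84% of all genes) and an adjusted p of 0.31 by limma for *Rlim*. *Rlim* kept log2 fold changes of -1.52 to -1.28 in its 20 alternatives, and its adjusted p was past 0.05 in 6 (0.15 to 0.92): without the batch term, without the variance trend, with the block, in batch 2 alone and without fl/Y replicate 1 or 3. Of 755 values of the 38 named members under 20 alternatives, 679 kept their direction, 75 did not, and 1 was newly called. The cause of these changes was not tested. Members with few reads, such as *Ndufaf6* with 34, had the widest intervals.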
